A study of Mus musculus with 8 samples.

Results

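Levels of 9 genes were followed through 8 RNA-seq libraries of mouse epididymal fat: Mest, Sfrp5, Bmp3 and Npr3, whose transcripts are known to track the growth of fat depots, and Cav1, Cav2, Ptrf, Sdpr and Ehd2, which build and hold caveolae. The genes were chosen by name for these roles, out of 18691 genes listed in the files, and all 9 were among the 14257 genes that were tested. All mice were C57BL/6J aged 16 weeks, and 4 libraries were labelled wild type (WT) and 4 Mrp4 knockout (Mrp4-/-). Mrp4, the product of Abcc4, is a membrane pump that exports cyclic nucleotides and prostaglandins. No diet, sex, body weight or fat cell size is given in the labels, so none of these could be set beside the levels. Whether the libraries came from different mice is not stated in the labels, and the p-values therefore cover no more than the spread among the libraries as deposited. The sources used here do not describe the altered Abcc4 allele.

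Fat cells store triglyceride in a large lipid droplet and grow by enlarging it. MEST, an imprinted protein of the endoplasmic reticulum with a hydrolase fold, and SFRP5, a secreted protein that binds Wnt ligands, are known for transcripts that vary widely between genetically identical mice and go with the later gain of fat. BMP3 is a secreted relative of the bone morphogenetic proteins, and NPR3 is the receptor that takes up and clears natriuretic peptides, whose other receptors raise cyclic GMP and lipolysis. Caveolae are flask-shaped pits of the plasma membrane, very dense in fat cells and also abundant in endothelium and smooth muscle. Their coat is made of caveolins (CAV1 and CAV2) and cavins (PTRF, now called cavin 1, and SDPR, now called cavin 2), and EHD2 is an ATPase that sits at the neck and holds the pit in the membrane.

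The label itself had no counterpart in the targeted transcript. Abcc4 stood at 3.59, 3.33, 3.81 and 3.33 FPKM (fragments per kilobase of a transcript and per unit of sequencing depth) in WT replicates 1, 2, 3 and 4, and at 3.54, 3.68, 3.89 and 3.31 FPKM in replicates 1, 2, 4 and 5 labelled Mrp4 knockout. The log2 fold change was -0.05 ± 0.08 (SE, edgeR adjusted p = 0.692), so every direction below rests on the label alone, and the second group is called the KO-labelled libraries. The libraries held 14064681 to 14700114 expected counts. WT replicate 2 stood apart from the other WT libraries: its FPKM lay nearer to the KO-labelled mean than to the mean of the other WT libraries for 52.2% of the tested genes, against 27.9%, 33% and 28.4% for WT replicates 1, 3 and 4. It did not share the high liver transcripts of the KO-labelled libraries, since a list of 18 liver genes summed to 58.8 FPKM in it, 53.3 to 138 FPKM over the WT libraries and 941 to 1715 FPKM over the KO-labelled ones. It alone held Crisp1, an epididymal transcript, at 13.47 FPKM, where no other library passed 0.6 FPKM. The other epididymal genes that were looked up and listed in the files, Lcn8, Adam7 and Defb20, stood at 0 FPKM in WT replicate 2. Adipocyte markers were high in every library, with Adipoq, the gene of adiponectin, at 2614 FPKM in WT and 2457 FPKM in the KO-labelled libraries. For each gene that rests on WT replicate 2 the value without it is given as well. That library was singled out after the values were seen.

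To show the regulatory sequence of the genes on which the contrast below turns, the 250 bases before an annotated start are printed for 2 expansion markers and 2 caveola genes, 5′ to 3′ on the gene's strand. They are RefSeq sequences of build GRCm38.p6, not the mm9 build of the files. Capitals mark, on either strand, the TATA box (TATAAA), the CCAAT box (CCAAT) and the GC box (GGGCGG), common promoter motifs, and AGGTCA, the motif read by many nuclear receptors. The windows are Mest at chr6:30737800-30738049 (plus strand), Sfrp5 at chr19:42202253-42202502 (minus strand), Ptrf at chr11:100970616-100970865 (minus strand) and Cav1 at chr6:17306085-17306334 (plus strand).
Mest: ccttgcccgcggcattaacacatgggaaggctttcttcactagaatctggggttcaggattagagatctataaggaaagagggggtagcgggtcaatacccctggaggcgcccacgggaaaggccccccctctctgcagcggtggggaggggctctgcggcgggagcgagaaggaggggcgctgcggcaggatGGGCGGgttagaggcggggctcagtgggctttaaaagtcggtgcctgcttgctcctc
Sfrp5: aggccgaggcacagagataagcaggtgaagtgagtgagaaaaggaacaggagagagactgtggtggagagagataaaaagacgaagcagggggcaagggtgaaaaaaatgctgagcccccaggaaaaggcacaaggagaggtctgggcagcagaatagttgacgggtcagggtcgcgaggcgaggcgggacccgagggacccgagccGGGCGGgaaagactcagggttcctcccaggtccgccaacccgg
Ptrf: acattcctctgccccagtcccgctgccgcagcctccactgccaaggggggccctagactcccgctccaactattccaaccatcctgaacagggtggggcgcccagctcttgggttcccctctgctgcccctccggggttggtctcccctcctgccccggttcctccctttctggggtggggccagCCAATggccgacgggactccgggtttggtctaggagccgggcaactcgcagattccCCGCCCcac
Cav1: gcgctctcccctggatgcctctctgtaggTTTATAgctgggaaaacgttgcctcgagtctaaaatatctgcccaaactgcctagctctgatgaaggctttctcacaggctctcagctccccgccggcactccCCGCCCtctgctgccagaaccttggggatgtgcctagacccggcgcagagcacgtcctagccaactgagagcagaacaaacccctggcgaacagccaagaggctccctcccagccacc

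All 4 windows held a GC box, that of Ptrf also a CCAAT box, and that of Cav1 a TATA box in reverse. RefSeq windows were matched for 8 of the 9 genes, and Bmp3 was not among them. Over these 8 genes, counting any of a gene's windows, a GC box was found in 6 genes, a CCAAT box in 5, a TATA box in 1 and AGGTCA in 0. Over all 32807 windows of the table the shares were 32.7%, 33.8%, 12.4% and 14%. These shares are per window, whereas a gene with several windows had more chances of a match. The other window of Cav1, at chr6:17307390-17307639, held no match. A match describes letters only, and no binding was measured.

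The expansion markers stood far higher in the KO-labelled libraries than in 3 of the 4 WT libraries, with WT replicate 2 in between or among them. The mean level was 2.70-fold higher for Mest, 3.42-fold for Sfrp5, 3.44-fold for Bmp3 and 1.92-fold for Npr3. Mest and Bmp3 rose by the test over all genes, while Sfrp5 and Npr3 did not pass it. Of the 9 genes, 2 were higher and 0 lower at an edgeR adjusted p under 0.05, where 10.2% of all tested genes were higher and 8.05% lower, 18.3% in all. At an unadjusted p under 0.05 the counts were 4 and 0 (18.7% and 16.6% of all tested genes). DESeq2 called 2 and 0 (12.5% and 10.7%), and limma-voom called 3 and 0 (10.5% and 7.72%). The WT and KO-labelled ranges of FPKM did not overlap for 3 genes, Mest, Bmp3 and Ptrf, all higher, where 16.4% of all tested genes were higher in this way and 7.08% lower. For Ptrf this separation was lost with the scaling of the edgeR test.

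**Figure D1:**
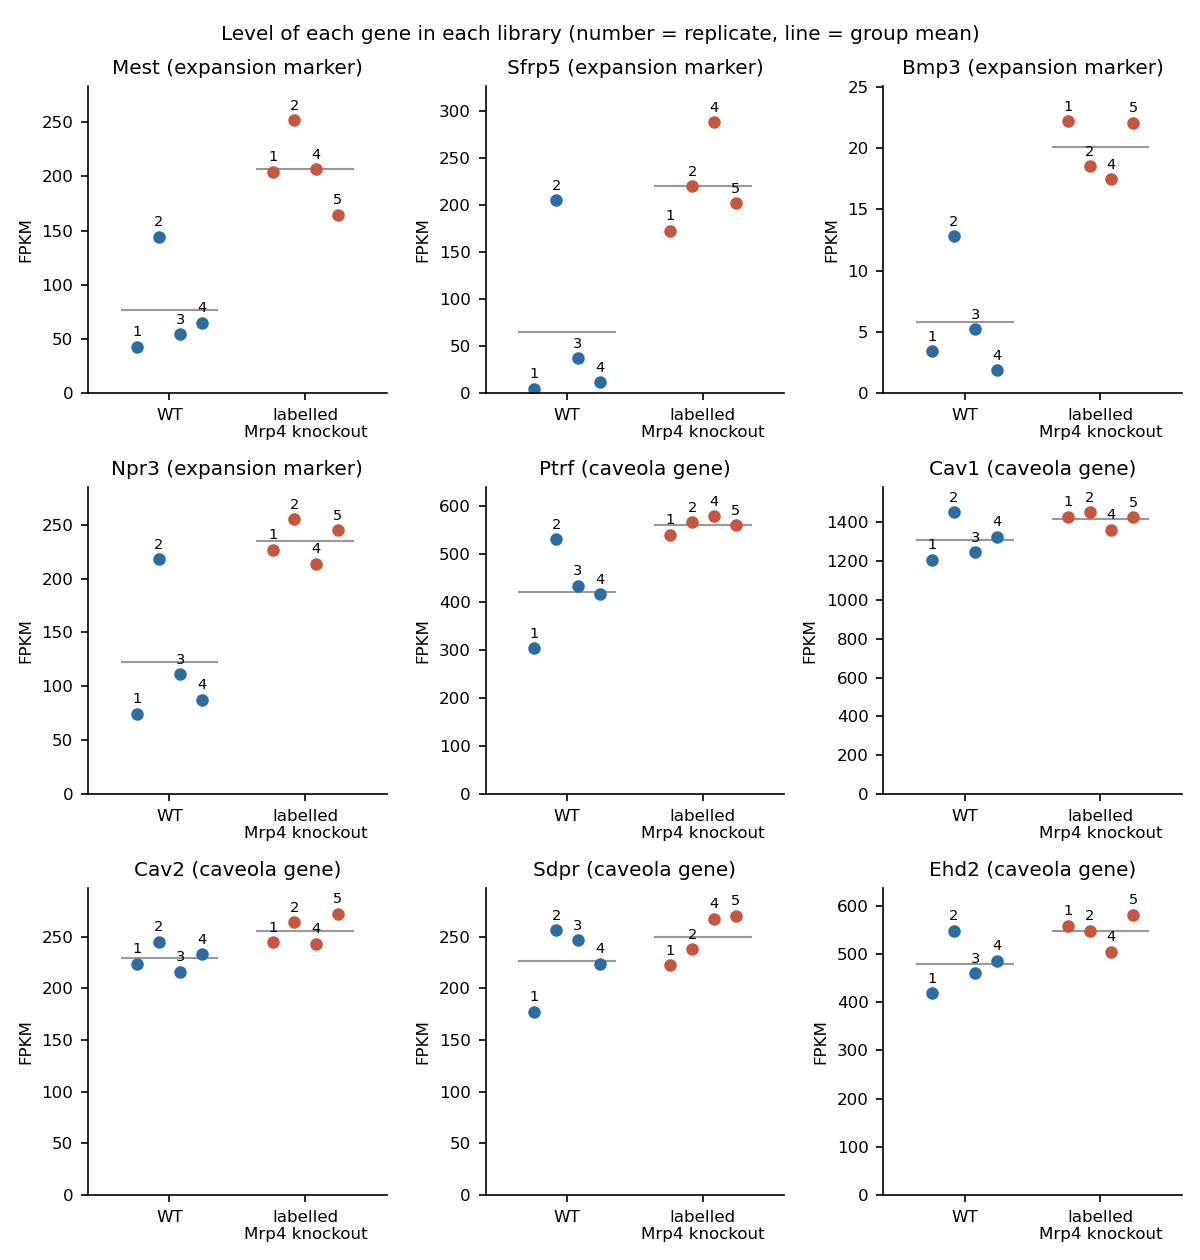
Level in FPKM of each of the 9 genes in each library, with 1 panel per gene, WT in blue and the KO-labelled libraries in red; numbers are replicates and lines are group means. For Mest, Sfrp5, Bmp3 and Npr3 WT replicate 2 lies well above the other 3 WT libraries, while the panels of Cav1 and Cav2 are nearly flat, from 1208 to 1452 FPKM and from 216 to 272 FPKM.

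Mest (gene 17294) stood at 42.91, 144.36, 54.10 and 64.90 FPKM in WT replicates 1 to 4 and at 204.57, 252.10, 206.85 and 164.76 FPKM in KO-labelled replicates 1, 2, 4 and 5. Every KO-labelled library lay above every WT library, and WT replicate 2 lay closest to them. The means were 76.6 ± 46.1 FPKM in WT and 207 ± 35.7 FPKM in the KO-labelled libraries (SD, n = 4). On the log2 scale the fold change was 1.38 ± 0.34 (SE), and its 95% interval ran from 0.62 to 2.13 (edgeR adjusted p = 0.0252). Without WT replicate 2 it was 1.86 (edgeR adjusted p = 0.00094). The call also held without KO-labelled replicate 5 (log2 fold change 1.47), and was lost without any other single library, with log2 fold changes of 1.18, 1.24 and 1.31 without WT replicates 1, 3 and 4 and of 1.39, 1.27 and 1.38 without KO-labelled replicates 1, 2 and 4.

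Bmp3 (gene 110075) was the least abundant of the 9 genes, at 3.43, 12.82, 5.23 and 1.87 FPKM in WT replicates 1 to 4 and 22.20, 18.51, 17.47 and 22.08 FPKM in KO-labelled replicates 1, 2, 4 and 5. The groups did not overlap, and WT replicate 2 was again the nearest WT library. Its expected counts lay between 82 and 566 for WT and between 787 and 989 for the KO-labelled libraries. The means were 5.84 ± 4.85 and 20.1 ± 2.43 FPKM (SD, n = 4), and the fold change was 1.73 ± 0.46 (SE) on the log2 scale, 95% interval 0.69 to 2.77 (edgeR adjusted p = 0.0341). Without WT replicate 2 it was 2.44 (edgeR adjusted p = 0.0016). Without any other single library the call was lost, with log2 fold changes of 1.54, 1.68 and 1.44 without WT replicates 1, 3 and 4 and of 1.68, 1.77, 1.79 and 1.67 without KO-labelled replicates 1, 2, 4 and 5.

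Sfrp5 (gene 54612) had the widest WT range of the 9 genes. Its WT replicates 1 to 4 stood at 4.68, 204.89, 37.08 and 11.63 FPKM, so that the highest was 43.8-fold the lowest, and KO-labelled replicates 1, 2, 4 and 5 stood at 172.68, 219.74, 288.20 and 202.15 FPKM. WT replicate 2 lay inside the KO-labelled range, and the other 3 WT libraries lay far below it. Its fold change was 1.73 ± 0.95 (SE) on the log2 scale, 95% interval -0.44 to 3.90 (edgeR adjusted p = 0.228). Estimates that average on the log scale were larger and did not pass either, at 3.03 by limma-voom (adjusted p = 0.0595) and 2.99 by limma on log2(FPKM + 1) (adjusted p = 0.0506), and DESeq2 gave no adjusted p. Without WT replicate 2 the log2 fold change was 3.56 (edgeR adjusted p = 0.00771).

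Npr3 (gene 18162) followed the same order at a higher level. WT replicates 1 to 4 stood at 74.36, 217.89, 111.47 and 87.37 FPKM and KO-labelled replicates 1, 2, 4 and 5 at 226.85, 254.83, 213.83 and 245.02 FPKM. The groups overlapped only through WT replicate 2, which lay just above KO-labelled replicate 4. The means were 123 ± 65.2 and 235 ± 18.3 FPKM (SD, n = 4), and the fold change was 0.88 ± 0.29 (SE) on the log2 scale, 95% interval 0.22 to 1.53 (edgeR adjusted p = 0.064). It passed by limma-voom (1.0, adjusted p = 0.039) and, without WT replicate 2, by edgeR (1.29, adjusted p = 0.00115).

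The expansion markers varied widely within the WT group, in good part through WT replicate 2. The SD of log2 CPM (counts scaled to library size) over the 4 WT libraries was 2.32 for Sfrp5, 1.13 for Bmp3, 0.75 for Mest and 0.66 for Npr3, against a median of 0.168 over all tested genes. In order of this SD over the 14257 tested genes, Sfrp5 was number 2, Bmp3 number 114, Mest number 445 and Npr3 number 594. The KO-labelled libraries were closer together, with SDs of 0.32, 0.18, 0.24 and 0.12 in the same order of genes, against a median of 0.143. Without WT replicate 2, a setting chosen after the values were seen, the WT SDs were 1.47, 0.72, 0.31 and 0.28, at numbers 46, 478, 2923 and 3328, against a median of 0.152. Of the caveola genes, Ptrf (0.32) and Sdpr (0.22) lay above the median WT SD over all 4 libraries, and Ehd2 (0.15), Cav1 (0.11) and Cav2 (0.08) lay below it.

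**Figure D2:**
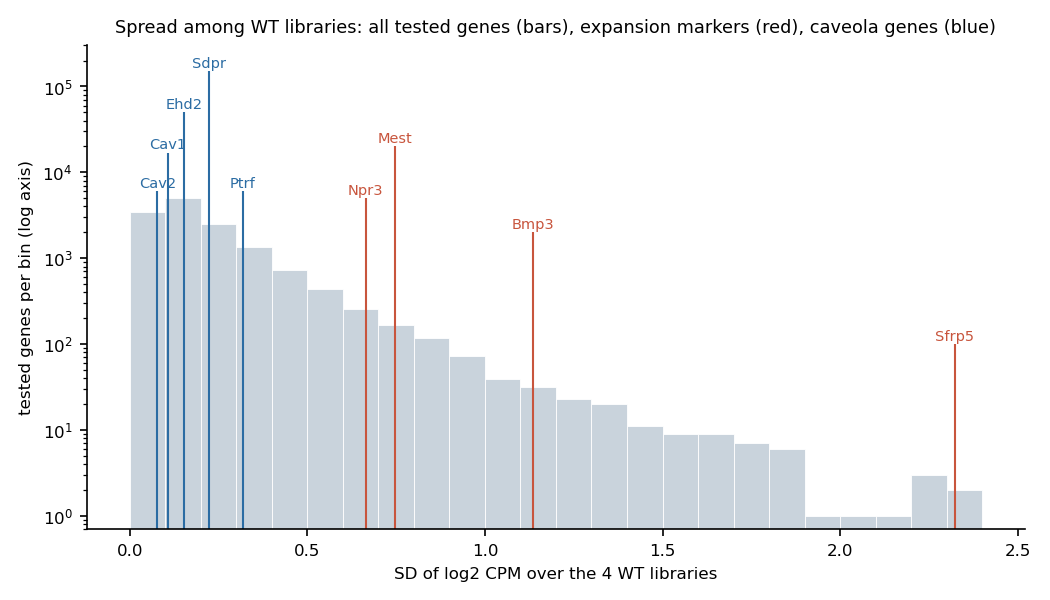
SD of log2 CPM over the 4 WT libraries on the x axis and the number of tested genes in each bin on a log y axis; vertical lines mark the expansion markers in red and the caveola genes in blue, and line heights only keep the names apart. The red lines lie from 0.66 to 2.32 and the blue lines from 0.08 to 0.32.

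The same WT library stood highest for each of the 9 genes, while the order of the others varied. WT replicate 2 was the highest WT library for 9 of 9 genes, where 31.5% of all tested genes had it highest. It lay nearer to the KO-labelled mean than to the mean of the other WT libraries for 9 of 9, where 52.2% of all tested genes did so. WT replicate 1 was the lowest for 7 of 9, where 27.7% of all tested genes had it lowest, and the exceptions were Bmp3 (WT replicate 4) and Cav2 (WT replicate 3). The genes share these libraries, so these counts are not independent of each other. Without WT replicate 2 the count of genes that rose went from 2 to 5 of 9, namely Mest, Sfrp5, Bmp3, Npr3 and Ptrf, with 0 lower, where 13.7% of tested genes were then higher and 11.8% lower. Leaving out any other single library gave 0 or 1. WT replicate 2 was singled out after the values were seen. It is the highest WT library for all 9 genes, so leaving it out must lower every WT mean. The calls without it are therefore no separate support for a rise.

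**Figure D3:**
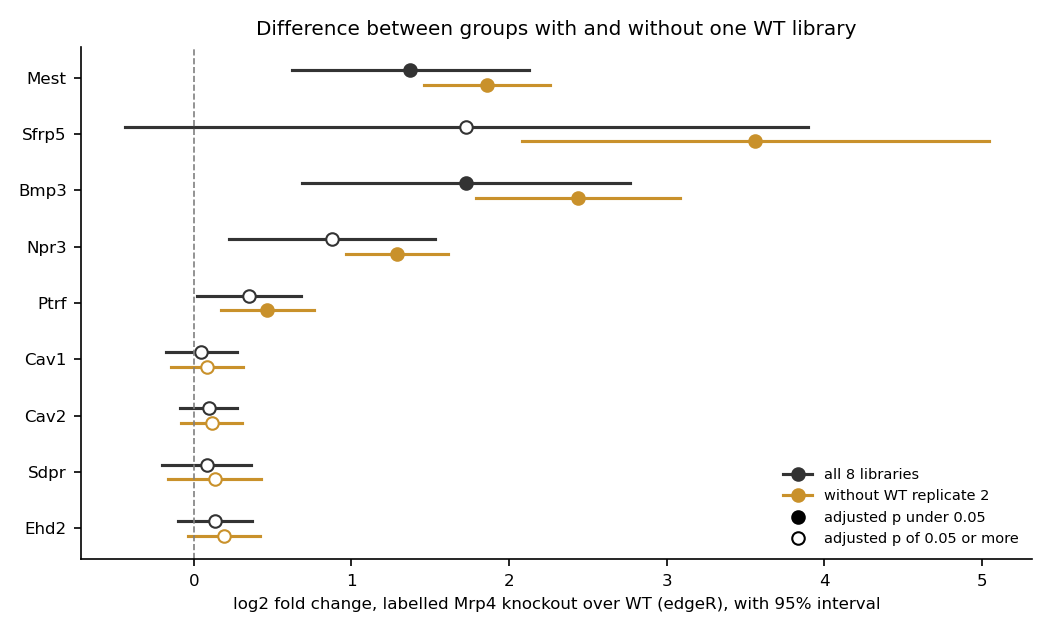
Log2 fold change of each gene, KO-labelled over WT, from edgeR with its 95% interval on the x axis, for all 8 libraries (dark) and without WT replicate 2 (ochre); filled points passed an adjusted p of 0.05. Without that library, which was singled out after the values were seen, the filled points are Mest, Sfrp5, Bmp3, Npr3 and Ptrf. Cav1, Cav2, Sdpr and Ehd2 stay unfilled and near 0.

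The caveola genes were abundant and, apart from Ptrf, differed by little. In WT, Cav1 ranked 29 of 18691 genes by FPKM, Ehd2 101, Ptrf 120, Cav2 256 and Sdpr 261, where Npr3, Mest, Sfrp5 and Bmp3 ranked 515, 916, 1090 and 8268. None of the 5 caveola genes passed the edgeR test, and their median log2 fold change was 0.09, against 1.55 for the 4 expansion markers and -0.003 over all tested genes. All 9 log2 fold changes were positive, as were 49.5% of those over all tested genes. In bulk tissue fewer cells of a type and less RNA per cell cannot be told apart, and the caveola genes are transcribed in several cell types of fat.

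Cav1 (gene 12389), which encodes the main structural caveolin of the coat, stood at 1208, 1451, 1247 and 1326 FPKM in WT replicates 1 to 4 and at 1427, 1452, 1362 and 1425 FPKM in KO-labelled replicates 1, 2, 4 and 5. In FPKM, which lacks the scaling of the edgeR test, the ranges overlapped through WT replicate 2. The log2 fold change was 0.05 ± 0.10 (SE, edgeR adjusted p = 0.774), and the 95% interval of the fold ran from 0.884 to 1.21. Cav2 (gene 12390), whose product joins that of Cav1 in the coat, stood at 224, 245, 216 and 233 FPKM in WT and at 244, 264, 243 and 272 FPKM in the KO-labelled libraries, with a log2 fold change of 0.09 ± 0.08 (SE, edgeR adjusted p = 0.444) and a fold interval from 0.94 to 1.21. A p over the threshold does not show that the levels of either gene were equal.

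Ptrf (gene 19285), the cavin without which caveolae do not form, differed most between the group means of the caveola genes. It stood at 304, 530.1, 433 and 415 FPKM in WT replicates 1 to 4 and at 539.6, 565, 578 and 559.8 FPKM in KO-labelled replicates 1, 2, 4 and 5. In FPKM every KO-labelled library lay above every WT library, the KO-labelled values lay close together, and WT replicate 1 lay lowest. FPKM lacks the TMM scaling of the edgeR test, with factors of 0.992 for WT replicate 2 and 1.037 for KO-labelled replicate 1. With that scaling WT replicate 2 lay above KO-labelled replicate 1, so the groups overlapped. The fold change of Ptrf was 0.35 ± 0.15 (SE, edgeR adjusted p = 0.119) on the log2 scale, or between 1.02-fold and 1.6-fold by the 95% interval. It passed only without WT replicate 2 (0.47, edgeR adjusted p = 0.031). Without WT replicate 1 it was 0.22 (edgeR adjusted p = 0.187).

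Sdpr (gene 20324), a cavin that helps to bend the membrane, stood at 178, 257, 247 and 224 FPKM in WT and at 223, 238, 268 and 271 FPKM in the KO-labelled libraries. The groups overlapped over most of their range, and the log2 fold change was 0.08 ± 0.13 (SE, edgeR adjusted p = 0.677), or -0.02 without WT replicate 1. Ehd2 (gene 259300), the ATPase of the caveolar neck, stood at 419, 549, 459.8 and 486 FPKM in WT and at 559, 549, 505 and 582 FPKM in the KO-labelled libraries, with a log2 fold change of 0.13 ± 0.11 (SE, edgeR adjusted p = 0.394). The upper bound of its fold interval was 1.29. In FPKM, which lacks the scaling of that test, WT replicate 2 alone lay within the KO-labelled range of Ehd2.

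The summed markers of endothelium, which also carries caveolae, stood higher in the KO-labelled libraries, though not each marker did, and mural markers went in both directions. Counts of markers that rose or fell are to be read beside 10.2% higher and 8.05% lower over all tested genes. The 16 endothelial markers summed to 473 to 735 FPKM in WT, highest in WT replicate 2, and to 806 to 859 FPKM in the KO-labelled libraries, and 7 of 16 rose and 0 fell. The lowest log2 fold changes of the 16 were those of Kdr, Flt1, Emcn and Vwf, at 0.07, 0.06, -0.004 and -0.16, which did not pass. The 11 mural and smooth muscle markers summed to 223 to 335 FPKM in WT, again highest in WT replicate 2, and to 328 to 395 FPKM in the KO-labelled libraries, with 3 higher (Rgs5, Pdgfrb and Notch3), 0 lower and overlapping sums. Myh11, Tagln, Cnn1 and Des, genes of contractile smooth muscle, had log2 fold changes of -0.39, -0.31, -0.91 and -0.31 and did not pass. The 14 adipocyte markers summed to 33376 to 37572 FPKM in WT, lowest in WT replicate 2, and to 27392 to 32246 FPKM in the KO-labelled libraries, with 0 higher and 4 lower. The order of these sums rests on Cfd, 1 of the 4 lower genes. Without Cfd the sums overlap between the groups, and WT replicate 2 is no longer the lowest. The mean of Cfd was 9813 FPKM in WT (6279 FPKM in WT replicate 2) and 3466 FPKM in the KO-labelled libraries. Fabp4, the most abundant of the 14, had means of 10605 and 11969 FPKM and did not pass. Its highest WT library was WT replicate 2, at 12348 FPKM. No endothelial, mural or adipocyte marker was listed at 0 in any library. Macrophage markers summed to 715 to 842 FPKM in WT and 857 to 1338 FPKM in the KO-labelled libraries (4 of 12 higher, 0 lower), fibroblast and progenitor markers to 1854 to 2059 and 1846 to 2067 FPKM (5 of 12 higher, 1 lower), and mesothelial markers to 186 to 289 and 69.8 to 190 FPKM (0 of 10 higher, 1 lower). The part of these cells in the levels of the 9 genes was not tested.

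A ratio to Cav1 within a library does not depend on how libraries are scaled, and it asks whether the parts of the coat moved by unequal amounts. The ratio of Ptrf to Cav1 was 0.251, 0.365, 0.348 and 0.313 in WT replicates 1 to 4 and 0.378, 0.389, 0.424 and 0.393 in KO-labelled replicates 1, 2, 4 and 5, so the groups did not overlap. The mean log2 ratio was 0.32 higher in the KO-labelled libraries, with an exact two-sided permutation p of 0.0286, the smallest that 4 against 4 libraries can give, and 0.114 after Benjamini-Hochberg adjustment over 4 ratios. The ratio of Cav2 to Cav1 was 0.176 ± 0.0069 in WT and 0.181 ± 0.0082 in the KO-labelled libraries (SD, n = 4; exact permutation p = 0.4), and that of Sdpr 0.173 ± 0.0211 and 0.177 ± 0.0196 (exact permutation p = 0.83). The ratio of Ehd2 to Cav1 was 0.365 ± 0.0131 and 0.387 ± 0.0166 (exact permutation p = 0.0857, adjusted 0.171). None passed after adjustment. A ratio that alone reaches the smallest exact permutation p is adjusted to 0.114 over 4 ratios, so that of Ptrf could not pass by itself. With Ptrf in place of Cav1 as the reference, Cav1, Sdpr, Cav2 and Ehd2 were lower against it by 0.32, 0.29, 0.28 and 0.24 on the log2 scale, with adjusted exact permutation p from 0.0571 to 0.0857.

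**Figure D4:**
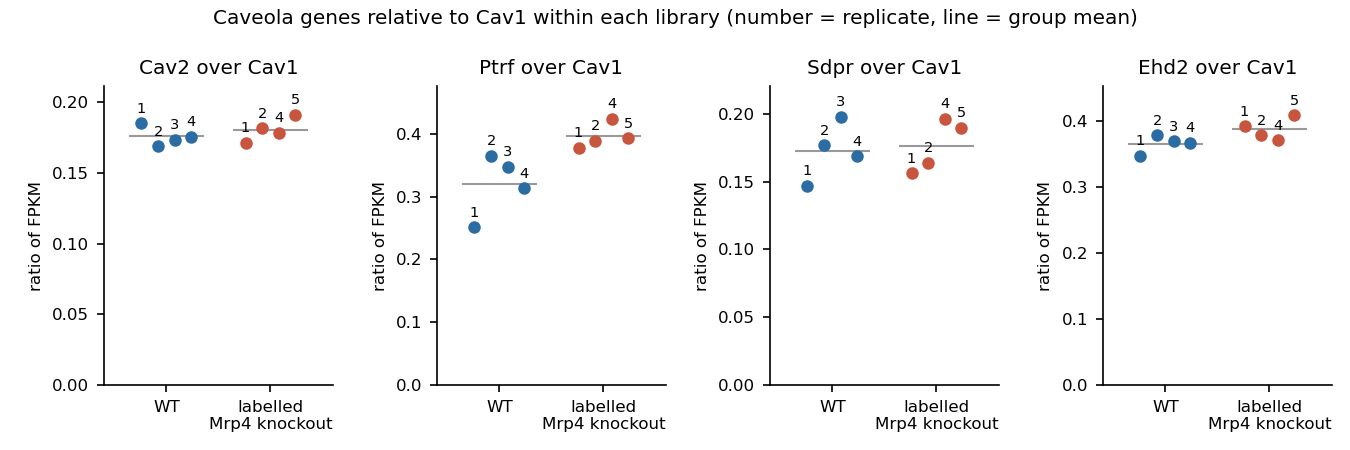
Ratio of the FPKM of Cav2, Ptrf, Sdpr and Ehd2 to that of Cav1 in each library, WT in blue and the KO-labelled libraries in red; numbers are replicates and lines are group means. Only in the Ptrf panel do the groups not overlap, with WT from 0.251 to 0.365 and the KO-labelled libraries from 0.378 to 0.424.

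The deposited transcript length, which varies between libraries for genes with more than 1 transcript, gave a view of Cav1 that its level did not. The files list 2 transcripts of Cav1, and its length was 2577.10, 2565.79, 2572.03 and 2568.09 bases in WT replicates 1 to 4 and 2562.68, 2560.41, 2562.59 and 2562.51 bases in KO-labelled replicates 1, 2, 4 and 5. All 4 KO-labelled values lay below all WT values, with WT replicate 2 closest to them, and the means were 2570.8 ± 4.95 and 2562 ± 1.09 bases (SD, n = 4). Among 3214 genes whose length varies, 2.08% had ranges apart with the KO-labelled libraries lower and 5.04% had them apart in either direction. The lengths of Mest (3 transcripts, 2579.3 to 2581.6 bases) and Npr3 (2 transcripts, 6925.5 to 6925.8 bases) overlapped between groups, and the other 6 genes have 1 listed transcript and a constant length. The sources used here do not say how the length was computed, so the difference for Cav1 is a description without a test.

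Likeness of pattern was taken as Pearson's r of log2 CPM over the 8 libraries. Each gene was set beside the 11848 other tested genes whose mean over all 8 libraries reached 1 FPKM. Symbols of the Gm, LOC and Rik kinds were passed over. The points share library, depth and group, so r is a description. Among the 9 genes the highest values were 0.98 for Sfrp5 with Npr3, 0.96 for Sfrp5 with Ptrf, 0.95 for Npr3 with Mest and with Bmp3, and 0.93 for Cav1 with Ehd2. Cav1 with Cav2, adjacent genes on the same chromosome, gave 0.77. Other genes stood closer in each case. By r, Npr3 was number 24 and Ptrf number 85 for Sfrp5. Mest was number 120 and Bmp3 number 128 for Npr3, and Ehd2 was number 3 and Cav2 number 209 for Cav1. Ptrf stood closer to Sfrp5 than to Cav1 (0.73) or Cav2 (0.56).

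Outside the 9 genes, the most alike were St6galnac4 and Sspn for Mest (both r = 0.99), Atp6ap2 (0.998) and Zfyve28 (0.99) for Sfrp5, Adam10 and Fscn1 for Bmp3 (both 0.99), Calu and Parva for Npr3 (both 0.99) and Ctif (0.99) and Ywhaq (0.98) for Ptrf. For Cav1 they were Mlf1ip and Slc36a4 (both 0.95), for Cav2 Tab2 and Plekhf2 (both 0.95), for Sdpr Trip11 and Pde3a (both 0.99), and for Ehd2 Ncoa2 and Nek1 (0.97 and 0.96). These 18 genes were picked for their likeness to the 9 genes, some of which differed between the groups. Nothing is therefore read from how many of the 18 were called. St6galnac4, Sspn, Adam10, Fscn1 and Parva were higher by edgeR with all libraries, and these calls were lost in 5, 7, 7, 7 and 7 of the 8 fits without 1 library, with log2 fold changes of 0.30 to 0.43, 0.37 to 0.56, 0.23 to 0.35, 0.72 to 1.12 and 0.32 to 0.51. Fscn1, which bundles actin filaments, went from 29.8 ± 11.6 to 57.2 ± 3.72 FPKM (SD, n = 4).

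Related genes from lists drawn for the tissue and for the roles of the 9 genes were counted next, and each count is to be read beside 10.2% higher and 8.05% lower over all tested genes. Brackets after a gene that lost its call in a fit without 1 library give its range of log2 fold change over those 8 fits and how many lost it. All adjusted p-values in these paragraphs are from edgeR. Among 13 other caveola genes tested, 3 rose, 2 fell and 8 did not pass, with a median log2 fold change of 0.07. With libraries scaled by size alone 5 rose and 0 fell, and without 1 library 0 to 4 rose and 0 to 2 fell. Prkcdbp, now called cavin 3, stood at 249, 284, 251 and 220.5 FPKM in WT and at 373, 317, 319 and 421 FPKM in the KO-labelled libraries. It rose by 0.45 ± 0.11 on the log2 scale (SE, adjusted p = 0.0257), its groups did not overlap, and the call was lost without WT replicate 1, 3 or 4 or KO-labelled replicate 1 (0.45, 0.45, 0.40 and 0.44). Ehd3, a relative of EHD2, rose by 0.62 (0.51 to 0.75, 6) and Flna, filamin A, which ties caveolae to actin, by 0.49 (0.42 to 0.57, 5). Ehd1, another relative of EHD2, fell by 0.34 on the log2 scale (-0.42 to -0.28, 7), and Nos3, the endothelial nitric oxide synthase that CAV1 binds, fell by 0.45 (-0.52 to -0.32, 6). Both falls did not pass when libraries were scaled by size alone (-0.28 and -0.38, adjusted p = 0.0702 and 0.0547).

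Around NPR3, 11 genes of the natriuretic peptide and cyclic GMP pathway were tested, of which 3 rose, 0 fell and 8 did not pass, with a median of 0.10. Vasp, a target of the cyclic GMP dependent kinase, rose by 0.47 ± 0.10 (SE, adjusted p = 0.0143), also in each of the 8 fits without 1 library. Gucy1b3, a subunit of soluble guanylate cyclase, rose by 0.46 (0.39 to 0.55, 6), and Pde2a, which breaks down cyclic nucleotides, by 0.48 (0.39 to 0.59, 7). In the Wnt list, which holds the ligands that SFRP5 binds, 2 of 40 rose, 2 fell (1 with libraries scaled by size alone) and 36 did not pass, with a median of 0.11. Sfrp4, a secreted relative of SFRP5, rose from 4.74 ± 1.97 to 13.3 ± 5.69 FPKM (1.43; 1.14 to 1.65, 5). The ligand gene Wnt2 rose by 1.22 (1.07 to 1.41, 5) from a level of 0.265 FPKM. Wnt2b, another ligand gene, fell from 12.1 ± 2.99 to 5.53 ± 2.25 FPKM (-1.20; -1.48 to -0.99, 5), and the receptor gene Fzd1 fell by 0.21 (-0.24 to -0.19, 7).

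Of 40 relatives, receptors and inhibitors of BMP3 tested, 5 rose, 2 fell and 33 did not pass, with a median of -0.002. Smad1, a transducer of the pathway, rose by 0.49 (0.44 to 0.57), a call lost without WT replicate 4 (0.46). Inhbb, which encodes a subunit of activin B, rose from 10.8 ± 3.37 to 19.6 ± 2.95 FPKM (0.80; 0.63 to 0.92, 4), and Bmp1, a protease that cuts procollagen, rose by 0.33 (0.27 to 0.38, 4). The ligand genes Gdf6 (1.46; 1.23 to 1.70, 6) and Gdf15 (1.07; 0.90 to 1.29, 6) rose from 0.16 and 1.07 FPKM. Smad9 fell by 0.82 (-0.91 to -0.66, 6).

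Mest is expressed from the paternal copy only, and 32 other imprinted or neighbouring genes were tested, of which 7 rose, 4 fell and 21 did not pass, with a median of 0.15. The number that fell was 1 with libraries scaled by size alone (8 rose) and 2 with upper quartile factors (7 rose). Slc38a4, an amino acid transporter, rose from 0.502 ± 0.144 to 3.27 ± 1.26 FPKM (2.63 ± 0.34 on the log2 scale, SE, adjusted p = 0.00189). It is also a liver transcript, and WT replicate 2 was its lowest library at 0.34 FPKM. Klf14 rose from 1.39 ± 0.367 to 2.85 ± 0.47 FPKM (0.97, adjusted p = 0.0121), and Rasgrf1 fell from 1.32 ± 0.165 to 0.573 ± 0.145 FPKM (-1.21, adjusted p = 0.0125). These 3 calls held in each fit without 1 library. Copg2 overlaps Mest on the chromosome in GRCm38.p6, and it rose from 15.8 ± 2.46 to 21.6 ± 1.42 FPKM (0.39; 0.32 to 0.47, 6). No use of strand is stated for the counting, so reads of Mest and Copg2 where they overlap cannot be told apart.

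Among 18 other genes linked with the growth of fat, 5 rose, 1 fell (0 with libraries scaled by size alone) and 12 did not pass, with a median of 0.14. Lep, which encodes leptin, had the order of the expansion markers: WT replicates 1 to 4 stood at 160, 508, 183 and 138 FPKM and KO-labelled replicates 1, 2, 4 and 5 at 707, 793, 863 and 1160.3 FPKM. Its groups did not overlap, WT replicate 2 lay between the other WT libraries and the KO-labelled ones, and the log2 fold change was 1.78 (1.59 to 2.38, 4). Col6a3, a collagen VI chain, had another order, at 19.9, 24.9, 25.9 and 22.2 FPKM in WT and 53.8, 39.2, 45.8 and 58.0 FPKM in the KO-labelled libraries, and WT replicate 2 lay within the other WT libraries. It rose by 1.04 ± 0.13 (SE, adjusted p = 0.00158), also in each fit without 1 library. Igfbp3, which encodes a binding protein of insulin-like growth factors, rose by 0.53 (0.45 to 0.61), a call lost without WT replicate 4 (0.46). Vldlr, a lipoprotein receptor (0.65; 0.50 to 0.79, 6), and Lox, which crosslinks collagen (0.65; 0.55 to 0.88, 7), rose as well, and Npy1r, a neuropeptide Y receptor, fell by 0.71 (-0.88 to -0.62, 6).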

How the data were processed

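RNA-seq of epididymal fat was measured in 8 libraries, 4 per group. Per the labels' protocols, polyadenylated RNA was sequenced in pairs of 100 bases on a BGISEQ-500. Per the submitters' processing notes the build was mm9 and Bowtie2 was used; the sources used here name no quantifier. The values deposited by the authors are, per the file headers, expected counts, FPKM and transcript lengths by gene and library. The deposited expected counts need not be whole (92% to 92.6% were). A gene not listed was taken as 0.

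The 9 genes, the lists, the rule for named genes and the markers were chosen with earlier results of these data known. The rule names the 9 genes, Abcc4, the 2 most alike genes of each and, in each list, up to 3 genes of at least 1 FPKM with the lowest p. Other called list genes, Adipoq, Crisp1 and genes beyond this rule were named after their values were seen. The values of 1 gene counted in a list are not reported here. Expected counts were rounded and tested with edgeR 4.0.16 (R 4.3.3; filterByExpr, TMM, robust quasi-likelihood, two-sided, Benjamini-Hochberg over 14257 genes, threshold 0.05). The SE is the log2 fold change divided by the square root of F. The code was tested on simulated counts. FPKM values are means ± SD. Alternatives were other scalings and filters, DESeq2 1.42.0, limma 3.58.1 (voom, and log2(FPKM + 1) or log2(FPKM + 0.1)), a block for the replicate number, other thresholds, and each library left out. Without molecular identifiers, reads are not independent molecules.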

Additional observations from a re-analysis of the deposited data

Results flagged for a closer look

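Sfrp5 in WT replicate 2, at 204.89 FPKM, lay far above the other WT libraries. In FPKM, not on a log scale, its gap to the nearest of them was 0.838 of the range of the group. That is over Dixon's 95% critical value for 4 libraries, and the flag holds for the FPKM scale only. Of 18 groups checked (9 genes in 2 groups), this was the 1 that passed, and chance flags about 1 group in 20. The same library was the highest of the WT group for all 9 genes.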

How the results depend on the processing

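Of 170 alternatives for the 9 genes, 146 kept the direction and the side of the threshold of the reported value, 17 lost a call, 6 gained one and 1 reversed. Only Mest and Bmp3 had a call to lose. Mest lost it in 6 of 8 fits without 1 library and in 2 of 11 other alternatives. Bmp3 lost it in 7 of 8 and 2 of 11. Without any filter, the number of the 9 genes that were higher was 0, with log2 fold changes of 1.37 for Mest (edgeR adjusted p = 0.052) and 1.72 for Bmp3 (adjusted p = 0.08). Deviations of log2 CPM from the group mean of each gene correlated at 0.011, -0.075 and -0.128 between same-numbered libraries. By this measure 0 of 3 WT libraries correlated best with their own number, so the numbers were not taken as pairs. With a replicate block 0 of the 9 genes were higher and 141 of all tested genes differed (2606 without). The log2 fold changes were then 1.5 for Mest and 2.0 for Bmp3. At a threshold of 0.01, 0 of the 9 genes were higher, with 551 genes over all. At 0.10 the genes over all numbered 4178. Npr3 passed by limma-voom (1.0) and on log2(FPKM + 1) and log2(FPKM + 0.1) (both 1.06). Abcc4 turned to 0.018 by library size alone, 0.028 on log2(FPKM + 1), 0.035 on log2(FPKM + 0.1) and 0.015 with the block, none past the threshold. Library size alone moved the calls over all genes from 1458 higher and 1148 lower to 1950 and 680, and the median log2 fold change by 0.065. With 1 library left out, the 9 genes gave 0 to 5 higher and all genes 1172 to 3683. The ranges were 1.18 to 1.86 for Mest, 1.44 to 2.44 for Bmp3, 1.34 to 3.56 for Sfrp5, 0.70 to 1.29 for Npr3, 0.22 to 0.47 for Ptrf and -0.018 to 0.14 for Sdpr. The ratio of Sdpr to Cav1 turned from 0.03 to -0.041, -0.020 and -0.0033 (log2) without WT replicate 1 and KO-labelled replicates 4 and 5. The other ratios kept their direction in each alternative run, and those without 1 library had no test. List counts moved by more than 1.5 times in 118 of their alternatives. Fewer libraries and the block leave less to estimate the spread; other causes were not tested.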
